A study of Homo sapiens with 12 samples.

Results

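Cytochrome P450 enzymes of families 1 to 4 oxidise drugs, carcinogens, fatty acids, eicosanoids and vitamins, and they make up most of the drug-oxidising capacity of the liver. The genes described here were chosen by symbol, as the Ensembl genes named CYP, then a digit from 1 to 4, a letter and digits only, which leaves out symbols of pseudogenes. CYP2D7 fits by its symbol and is annotated as a polymorphic pseudogene. The rule found 36 genes of 27249 with an Ensembl identifier, of which 3 belong to family 1, 17 to family 2, 4 to family 3 and 12 to family 4. A P450 enzyme holds a haem and takes its electrons from cytochrome P450 oxidoreductase, with cytochrome b5 as a second donor. Expression in hepatocytes is set largely by nuclear receptors, among them the pregnane X receptor (PXR, gene NR1I2) and the constitutive androstane receptor (CAR, NR1I3), while the aryl hydrocarbon receptor (AHR) drives family 1. Sorafenib itself is oxidised mainly by CYP3A4.

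RNA-seq was available for 12 samples of Huh7 and HepG2, human liver cancer cell lines that are both labelled wild type. Each line was sequenced as sorafenib-resistant cells and as untreated parental cells, which gives 4 groups of 3 samples. Resistant cells came from repeated exposure to sorafenib, each followed by removal of the drug, with a first dose of 10 μmol and rising concentrations over 8 months, and survivors that grew stably were carried on. Whether a resistant line is a single clone, and whether it was under the drug when RNA was taken, is not stated, and neither is whether replicates were separate cultures, so that p-values measure the spread between these samples. In bulk RNA, fewer cells with a transcript and less transcript per cell cannot be told apart.

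Values are FPKM, that is fragments scaled by gene length and depth, and 12290108 to 19286247 reads lay behind a sample. Parental HepG2 samples were the shallowest, with at most 15728776 reads. Replicates of a group correlated with r from 0.9643 to 0.9856 across genes. All 8 hepatocyte markers were expressed in both lines, with a summed level of 3816 to 9674 FPKM, while fibroblast, endothelial and leukocyte markers summed to 1.17 to 7.93 FPKM. Of these, PDGFRB measured 1.80 to 4.50 FPKM, PECAM1 1.12 to 3.61 FPKM and LYZ 3.84 to 6.26 FPKM in HepG2 samples. CD14 measured 0.13 to 0.82 FPKM in parental and 1.24 to 1.90 FPKM in resistant Huh7 samples. DCN, KDR, CDH5 and CD68 did not exceed 0.12 FPKM. AFP was lower in resistant cells of both lines, with log2 fold changes of -1.21 in Huh7 and -1.91 in HepG2. FGB was lower in HepG2 (-1.98) and little changed in Huh7 (0.15). The remaining hepatocyte markers ran from -0.93 for ALB in HepG2 to 0.97 for APOA1 in Huh7. The bile duct markers tested went different ways in resistant Huh7 cells, with log2 fold changes of 3.12 for KRT19, 1.89 for EPCAM and -0.57 for SOX9. The part of these marker shifts in the P450 results was not tested.

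The P450 genes did not move as a block with resistance, and the genes that changed differed between the lines. In resistant Huh7 cells CYP1A1, CYP2J2 and CYP2S1 rose and CYP4V2 fell, out of 10 members that reached the level needed for the test, 1 FPKM in 3 or more of the line's 6 samples. In resistant HepG2 cells CYP2W1, CYP3A43 and CYP3A5 rose and CYP2B6 and CYP2S1 fell, out of 13 tested. CYP3A43 in HepG2 and CYP2B6 in Huh7 had no parental sample at 1 FPKM, so both entered the test only through the resistant samples, where they are high, and had to differ. CYP2S1 was called in opposite directions, and 0 members were called by limma in the same direction in both lines. At an unadjusted p under 0.05, 2 members, CYP3A5 and CYP4V2, had the same direction in both lines and 5 had opposite directions, CYP2B6, CYP2J2, CYP2S1, CYP4F3 and CYP4F12. Limma-voom on reads called 1 in the same direction, CYP4V2, and 4 in opposite directions, CYP2B6, CYP2S1, CYP2W1 and CYP3A43. The shares of all genes with the same or opposite directions were not calculated, so these counts describe the members alone. A gene was called at a Benjamini-Hochberg adjusted p under 0.05 in limma together with a change of over 1 on the log2 axis, up or down, on the scale of log2(FPKM + 1), which understates the change of genes with low values. By this rule 8.59% of all genes tested were called higher and 14% lower in Huh7, and 3.29% higher and 2.98% lower in HepG2. Counting the adjusted p alone, all 10 members tested in Huh7 passed, where 70.1% of all genes did, and 8 of 13 passed in HepG2, where 20% of all genes did, CYP2B6 in Huh7 and CYP3A43 in HepG2 being among those that passed. The median log2 fold change of the members tested was 0.65 in Huh7, beside -0.04 for all genes tested, and -0.39 in HepG2, beside 0.12. With upper-quartile scaling the median of all genes was 0.11 in Huh7 and close to 0 in HepG2, and changes are best read against these shifts.

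The lines started from different P450 repertoires. Of the 36 genes, 18 reached a group mean of 1 FPKM in at least 1 group, and the number at that level was 10 in parental Huh7, 9 in resistant Huh7, 11 in parental HepG2 and 15 in resistant HepG2. In parental Huh7 cells the highest means were those of CYP4F3 (11.5 ± 0.903 FPKM, SD, n = 3), which inactivates leukotriene B4, of CYP2R1 (10.2 ± 0.259), which hydroxylates vitamin D, and of CYP1A1 (8.09 ± 1.48), which oxidises aromatic hydrocarbons. The ranges of CYP4F3 and CYP2R1 did not overlap, and those of CYP2R1 and CYP1A1 were separated by less than 1 FPKM. In parental HepG2 cells CYP2S1, an enzyme found mainly outside the liver, alone made up 41.1% of the summed level at 34.7 ± 4.93 FPKM, followed by CYP2B6 at 8.93 ± 2.68 FPKM.

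Among 12 members tested between the parental lines, CYP1A1, CYP2C18 and CYP2R1 were higher in Huh7, where 19.4% of all genes were called higher, and CYP2B6, CYP2S1, CYP2W1 and CYP4F11 were lower, where 12.5% were called lower. The log2 differences, Huh7 minus HepG2, ranged from -4.26 for CYP2S1 to 2.00 for CYP1A1, with adjusted p from 3.2e-07 to 0.000151 over the 7 genes. Of these, CYP2B6, CYP2C18, CYP2W1 and CYP4F11 had no sample at 1 FPKM in the lower line and so entered the test through the other line alone, and their p-values add no support. CYP4F11, which hydroxylates fatty acids and vitamin K, showed the split most plainly, since no Huh7 sample of either group had over 3 reads and every HepG2 sample had at least 252. CYP2C18 was the reverse, with 45 to 102 reads in Huh7 samples and 1 to 5 in HepG2 samples. With the GC trend of the libraries removed, CYP2C18 and CYP2R1 were no longer called (log2 differences 0.79 and 0.71). Line and any batch of culture or library cannot be told apart in this comparison.

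Summed over the 36 genes, the level was 54.8 ± 0.22 FPKM in parental and 92.5 ± 4.01 FPKM in resistant Huh7 cells, with 54.6 to 55.1 FPKM in the parental samples and 88.0 to 95.5 FPKM in the resistant ones. It was 84.6 ± 7.16 FPKM in parental and 71.7 ± 8.57 FPKM in resistant HepG2 cells, whose ranges overlapped. In Huh7 the share of CYP2S1 in the sum went from 1.56% to 21.1%, and in HepG2 it went from 41.1% to 21.8%. CYP1A1 and CYP2S1 together made up 43.5% of the sum in resistant Huh7 cells, and CYP2W1 and CYP2S1 made up 46.6% in resistant HepG2 cells. Within each of these pairs the ranges of FPKM overlapped.

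**Figure D1:**
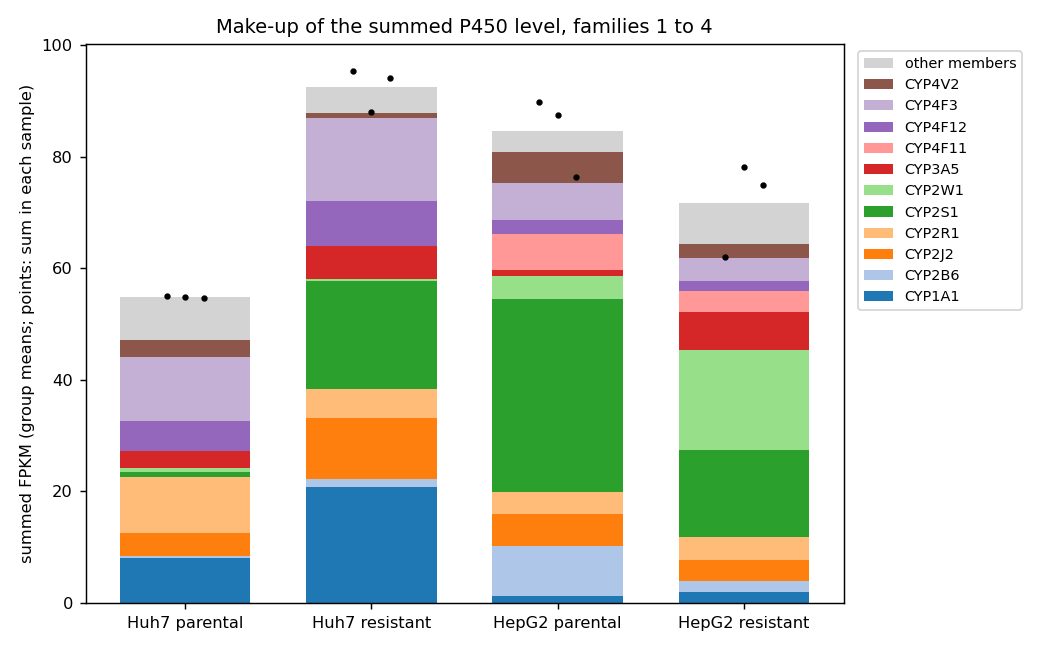
Summed FPKM (vertical axis) of the 36 P450 genes in the 4 groups (horizontal axis), stacked by the group means of the 11 genes shown by name and with the other genes in grey, and black points for the sum in each sample. The Huh7 stack is taller in resistant than in parental cells, mostly through CYP2S1 and CYP1A1, while in HepG2 the CYP2S1 block is smaller and the CYP2W1 block larger in resistant cells.

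The clearest change was that of CYP2S1, whose physiological substrates are not settled and which AHR ligands can induce. It lies at chr19:41193049-41207539 on the plus strand of GRCh38, at one end of a family 2 cluster on chromosome 19 that also holds CYP2B6 at chr19:40991250-41018398, a hepatic target gene of CAR and PXR that oxidises bupropion and cyclophosphamide. Their promoters are shown because these genes of the cluster took the same direction in each line while 48.1% of their aligned bases were identical. They are not direct neighbours, since CYP2A13 and CYP2F1 lie between CYP2B6 and CYP2S1. Each window runs from 250 bases before to 50 bases after the RefSeq start site on GRCh38.p14, 5′ to 3′ on the strand of the gene, with CG dinucleotides in capitals. The CYP2S1 window (chr19:41192969-41193268, plus strand) holds 29 of them and the CYP2B6 window (chr19:40991032-40991331, plus strand) holds 1, where the median over 35116 promoter windows was 14.
CYP2S1: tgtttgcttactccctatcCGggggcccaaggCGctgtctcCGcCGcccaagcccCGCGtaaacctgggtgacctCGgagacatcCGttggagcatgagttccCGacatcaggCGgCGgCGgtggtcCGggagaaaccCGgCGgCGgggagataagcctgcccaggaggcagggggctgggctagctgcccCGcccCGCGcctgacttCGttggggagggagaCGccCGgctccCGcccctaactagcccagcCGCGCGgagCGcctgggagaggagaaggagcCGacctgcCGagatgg
CYP2B6: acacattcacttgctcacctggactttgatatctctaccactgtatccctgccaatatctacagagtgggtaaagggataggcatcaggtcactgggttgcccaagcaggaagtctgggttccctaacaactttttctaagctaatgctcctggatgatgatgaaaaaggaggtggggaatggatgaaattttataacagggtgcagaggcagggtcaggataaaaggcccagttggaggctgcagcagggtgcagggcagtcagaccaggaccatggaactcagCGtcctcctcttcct

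CYP2S1 measured 1.09, 0.76 and 0.71 FPKM in the parental Huh7 samples and 20.9, 15.9 and 21.7 FPKM in the resistant ones. The lowest resistant sample was above the highest parental one by a wide margin, and the means differed 22.8-fold (log2 fold change 3.46 ± 0.15, SE, adjusted p = 4.19e-06). In HepG2 it went the other way, with 35.0, 39.5 and 29.6 FPKM in parental and 11.8, 18.6 and 16.5 FPKM in resistant samples, 2.23-fold lower on average (log2 fold change -1.12 ± 0.19, adjusted p = 0.00674). The HepG2 groups did not overlap either, but without resistant replicate 1, the lowest of its group, the fold change was -0.94 and the call was lost. The lines thus ended at similar levels, 15.9 to 21.7 FPKM in resistant Huh7 and 11.8 to 18.6 FPKM in resistant HepG2 cells, from starting levels that differed 40.7-fold. The difference of the effects, Huh7 minus HepG2, was 4.58 ± 0.25 on the log2 scale (adjusted p = 3.57e-07).

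CYP2B6 took the same directions at lower levels. In Huh7 it measured 0.47, 0.33 and 0.35 FPKM in parental and 1.60, 1.38 and 1.55 FPKM in resistant samples, a 3.93-fold higher mean with a log2 fold change of 0.86 ± 0.10, under the size threshold. No p is given, since it passed the filter only through the resistant samples. With a pseudocount of 0.1, which shrinks low values less, the log2 fold change was 1.74. In HepG2 it fell from 10.3, 10.6 and 5.84 FPKM to 1.74, 2.19 and 1.77 FPKM, 4.69-fold (log2 fold change -1.74 ± 0.22, adjusted p = 0.00179). No groups overlapped within a line, and the effects differed between the lines by 2.60 ± 0.25 (adjusted p = 1.44e-05). The other 4 genes of the cluster stayed low, CYP2A6 at 0.63 to 1.17 FPKM in parental Huh7 and at most 0.05 FPKM in HepG2 samples, and CYP2A7, CYP2A13 and CYP2F1 at no more than 10 reads in any sample. CYP2A6, which oxidises nicotine, and CYP2A7 are near-identical copies whose reads may be split between them.

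**Figure D2:**
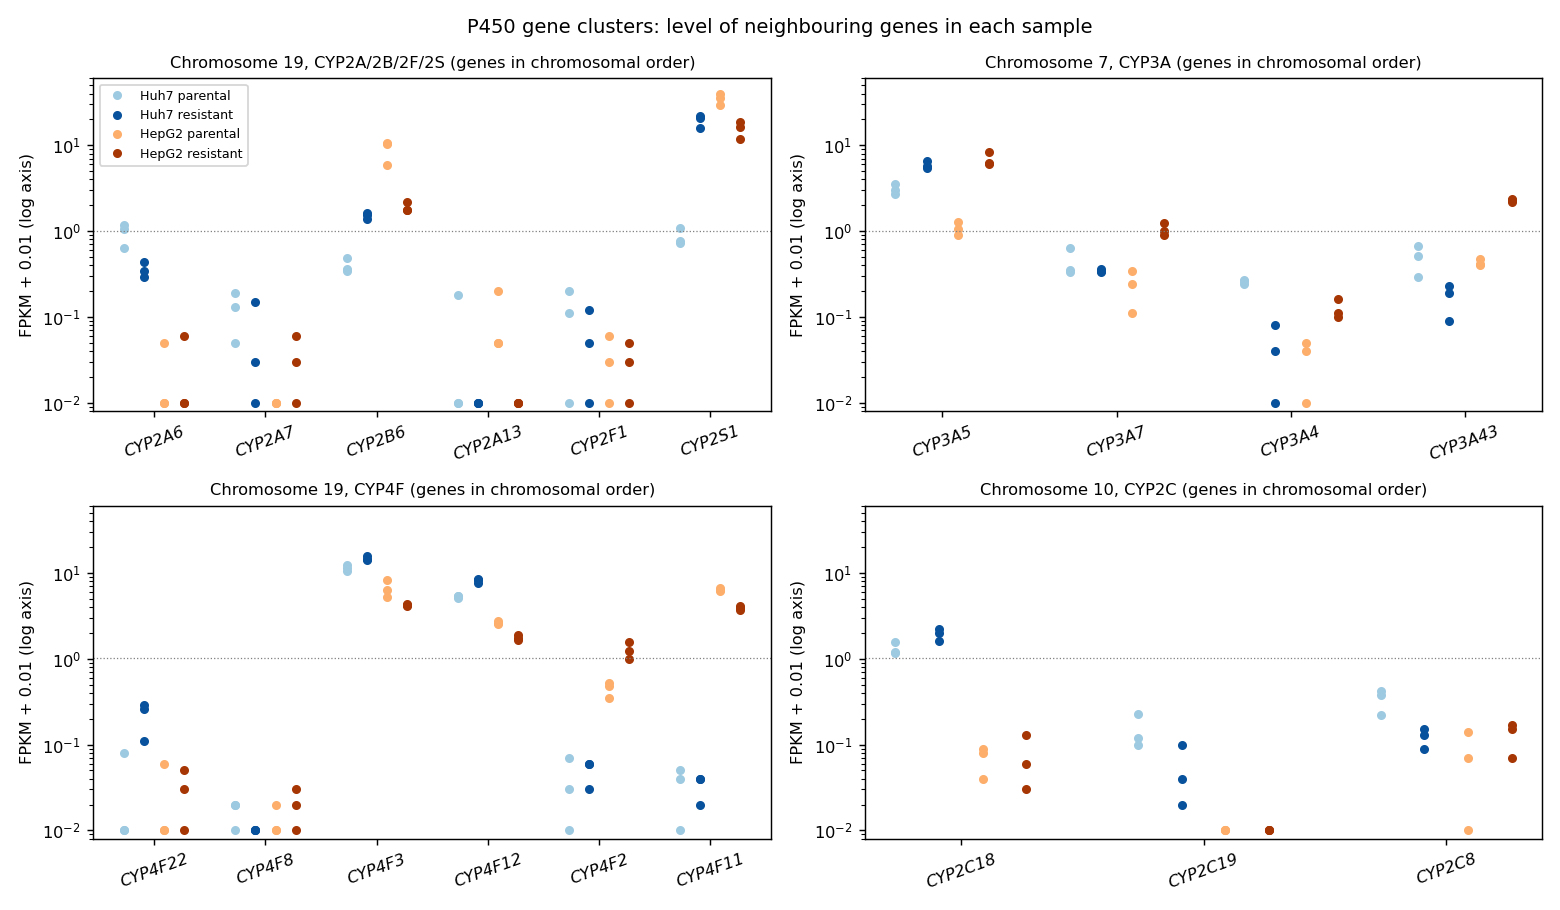
FPKM plus 0.01 on a log axis for 19 P450 genes of 4 gene clusters, with the genes of a cluster in chromosomal order along the horizontal axis and 1 point per sample, coloured by group. The dotted line marks 1 FPKM. In the chromosome 19 family 2 cluster CYP2B6 and CYP2S1 are higher in resistant than parental Huh7 samples and lower in resistant than parental HepG2 samples, and in the chromosome 7 cluster all 4 CYP3A genes are higher in resistant than parental HepG2 samples.

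All 4 genes of family 3 were higher in resistant than in parental HepG2 samples without overlap, as did 16% of all Ensembl genes with a read in that line and 6 of the 35 members with one, so that separation upward was about as frequent among the members as among all genes. They lie side by side on chromosome 7, CYP3A5 at chr7:99648194-99680026 and CYP3A43 at chr7:99828013-99866102 forming the ends. CYP3A5, which shares many drug substrates with CYP3A4, rose from 1.28, 0.90 and 1.04 FPKM to 8.26, 5.99 and 6.20 FPKM, 6.33-fold on average (log2 fold change 1.90 ± 0.16, adjusted p = 0.000424). CYP3A43, a member with little known activity, measured 0.40, 0.46 and 0.39 FPKM in parental and 2.35, 2.30 and 2.16 FPKM in resistant samples, 5.44-fold higher (log2 fold change 1.21 ± 0.13), and its p-value adds no support, as it reached the filter only in resistant samples. CYP3A7, the main form of the fetal liver, had 5, 11 and 20 reads in parental and 80, 63 and 64 reads in resistant samples and was under the filter on low values. In limma-voom, run on the reads behind the FPKM values so that low genes are kept, its log2 fold change was 2.30 (adjusted p = 0.000998). CYP3A4, the main hepatic drug oxidase, had 0, 1 and 2 reads in parental and 8, 6 and 5 reads in resistant samples, so the parental level lay at the floor of 3 reads and no fold is given.

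In Huh7 the family 3 genes did not move together. CYP3A5 measured 2.66, 3.02 and 3.55 FPKM in parental and 5.72, 6.51 and 5.47 FPKM in resistant samples, with no overlap and a log2 fold change of 0.76 ± 0.12 (adjusted p = 0.000699) that stayed under the size threshold. With the GC trend removed it was 1.16 and was called. CYP3A43 had 31, 22 and 12 reads in parental and 11, 4 and 9 reads in resistant samples, and CYP3A4 had 13, 13 and 13 reads in parental and 4, 0 and 2 reads in resistant ones. Both were lower in resistant samples without overlap, and limma-voom gave a log2 fold change of -1.64 (adjusted p = 0.00254) for CYP3A43. CYP3A4 reached the 10 reads that limma-voom asked for only in parental samples and lay at about the floor of 3 reads in resistant ones, so neither its fitted change nor its p is given. CYP3A7 overlapped between the groups, at 0.32, 0.34 and 0.62 FPKM in parental and 0.35, 0.33 and 0.32 FPKM in resistant samples. The effect of resistance differed between the lines for CYP3A5 by -1.14 ± 0.19 (adjusted p = 0.000525) and for CYP3A43, which reached 1 FPKM in resistant HepG2 samples alone, by -1.55 ± 0.15.

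The promoters of CYP3A5 and CYP3A7 are printed because these neighbours were both higher in resistant HepG2 samples, so that a reader can compare their upstream sequence. Capitals mark the bases that differ or have no partner in a global alignment of the pair. Of 242 aligned bases 205 were identical (84.7%), where CYP3A7 and CYP3A4 shared 94.3% and CYP3A5 and CYP3A43 shared 58.4%. The windows are those of CYP3A5 (chr7:99679947-99680246, minus strand) and CYP3A7 (chr7:99735147-99735446, minus strand) on GRCh38.p14. How reads shared between the transcripts of CYP3A genes were placed is not given in the sources used here, and 41.7% of the exon bases of CYP3A7 also belong to the readthrough gene CYP3A7-CYP3A51P or to CYP3A51P.
CYP3A5: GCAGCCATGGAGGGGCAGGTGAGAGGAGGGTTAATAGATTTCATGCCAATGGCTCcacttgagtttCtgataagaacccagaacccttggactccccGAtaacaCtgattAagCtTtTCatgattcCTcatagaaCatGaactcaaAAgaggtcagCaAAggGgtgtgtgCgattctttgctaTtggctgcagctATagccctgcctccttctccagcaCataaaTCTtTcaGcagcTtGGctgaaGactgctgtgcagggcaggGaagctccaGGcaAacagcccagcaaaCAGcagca
CYP3A7: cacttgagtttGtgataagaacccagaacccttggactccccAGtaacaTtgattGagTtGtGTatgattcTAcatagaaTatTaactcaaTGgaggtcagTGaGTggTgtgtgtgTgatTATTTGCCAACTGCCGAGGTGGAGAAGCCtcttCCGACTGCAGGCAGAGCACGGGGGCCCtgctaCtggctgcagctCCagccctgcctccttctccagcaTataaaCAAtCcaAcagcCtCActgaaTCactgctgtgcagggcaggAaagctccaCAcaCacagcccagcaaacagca

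CYP1A1, the classical AHR target, had the highest mean FPKM of the P450 genes in resistant Huh7 cells. It measured 9.70, 6.81 and 7.75 FPKM in parental and 23.3, 18.2 and 20.9 FPKM in resistant Huh7 samples. No samples overlapped and the means differed 2.57-fold (log2 fold change 1.27 ± 0.15, adjusted p = 0.000138). With the GC trend removed the fold change was 0.85 and the gene was no longer called. In HepG2 it measured 2.00, 1.02 and 0.87 FPKM in parental and 1.75, 1.72 and 2.42 FPKM in resistant samples, which overlapped (log2 fold change 0.39 ± 0.21, adjusted p = 0.214). The effects differed between the lines by 0.88 ± 0.27 (adjusted p = 0.0155), and this call was lost with a pseudocount of 0.1 (0.73), in limma-voom (0.60) and with the GC trend removed (0.58). CYP1B1, which hydroxylates oestrogens, did not follow CYP1A1 in Huh7, at 0.32, 0.40 and 0.39 FPKM in parental and 0.16, 0.13 and 0.17 FPKM in resistant samples, and the limma-voom log2 fold change was -1.32 (adjusted p = 0.000808). CYP1A2, the hepatic neighbour of CYP1A1 on chromosome 15, had at most 8 reads in any sample.

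CYP2W1, a tumour-associated enzyme of unsettled function, had the highest mean FPKM of the P450 genes in resistant HepG2 cells. It rose from 4.09, 3.35 and 4.88 FPKM in parental to 9.65, 23.0 and 20.8 FPKM in resistant samples, 4.34-fold on average (log2 fold change 1.81 ± 0.30, adjusted p = 0.00551). Resistant replicate 1 was the lowest of its group and still above every parental sample, and without any single HepG2 sample the fold change stayed between 1.59 and 2.17. Resistant Huh7 samples had 11, 18 and 20 reads and parental ones 40, 30 and 28 reads, lower in resistant cells without overlap (limma-voom log2 fold change -1.24, adjusted p = 0.00254). The effects differed between the lines by -2.18 ± 0.35 (adjusted p = 0.000419).

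The promoters of CYP1A1 and CYP2W1 are shown because each leads one resistant line, with the AHR core motif GCGTG, on either strand, in capitals. The motif was found in 36.5% of all windows and in a window of 8 of the 27 members that have one, namely CYP1A1, CYP2A7, CYP2J2, CYP2U1, CYP2W1, CYP4F22, CYP4V2 and CYP4X1. The CYP1A1 window (chr15:74725479-74725778, minus strand) holds 1 match, starting 57 bases before the start site, and the best known AHR-bound enhancers of this gene lie further upstream. The CYP2W1 window (chr7:982931-983230, plus strand) holds 2 matches on the opposite strand, printed as CACGC. A match is a description of the letters and not a bound site. AHR itself stayed under 1 FPKM in every sample, at 0.44 to 0.67 FPKM in parental and 0.44 to 0.49 FPKM in resistant Huh7 samples, and at 0.56 to 0.79 FPKM in parental and 0.20 to 0.28 FPKM in resistant HepG2 samples.
CYP1A1: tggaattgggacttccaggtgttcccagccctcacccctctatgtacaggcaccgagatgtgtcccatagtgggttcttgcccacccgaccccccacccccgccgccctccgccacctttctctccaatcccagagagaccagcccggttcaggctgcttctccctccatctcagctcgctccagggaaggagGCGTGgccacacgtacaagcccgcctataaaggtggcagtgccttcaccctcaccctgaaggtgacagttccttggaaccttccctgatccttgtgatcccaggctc
CYP2W1: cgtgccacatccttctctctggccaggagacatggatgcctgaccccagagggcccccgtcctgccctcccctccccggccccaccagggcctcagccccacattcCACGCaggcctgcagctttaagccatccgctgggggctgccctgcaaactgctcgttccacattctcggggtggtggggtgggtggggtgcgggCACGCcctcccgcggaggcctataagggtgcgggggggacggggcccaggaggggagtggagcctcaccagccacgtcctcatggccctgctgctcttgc

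Among the enzymes of fatty acids and eicosanoids, CYP2J2 rose in resistant Huh7 cells. This epoxygenase of arachidonic acid measured 3.78, 3.99 and 4.24 FPKM in parental and 10.2, 11.1 and 11.0 FPKM in resistant Huh7 samples, 2.69-fold higher without overlap (log2 fold change 1.23 ± 0.10, adjusted p = 3.5e-05). In HepG2 it was lower, 5.93, 5.85 and 5.21 FPKM in parental and 3.53, 4.08 and 3.65 FPKM in resistant samples, also without overlap, and passed the adjusted p (0.0369) with a log2 fold change of -0.49 ± 0.13. The effects differed between the lines by 1.72 ± 0.13 (adjusted p = 3.25e-06).

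CYP4V2, an omega-hydroxylase of fatty acids that is mutated in a retinal dystrophy, had the smallest difference of effects between the lines among the 14 members tested. It fell in Huh7 from 2.78, 3.30 and 3.04 FPKM to 0.91, 1.01 and 0.99 FPKM (log2 fold change -1.04 ± 0.10, adjusted p = 8.35e-05), and the means differed 3.14-fold. In HepG2 it measured 5.59, 3.97 and 7.07 FPKM in parental and 2.96, 2.01 and 2.17 FPKM in resistant samples, and the log2 fold change of -0.94 ± 0.21 (adjusted p = 0.0172) missed the size threshold. Neither pair of groups overlapped. The difference of the effects was -0.10, with a 95% interval of -0.61 to 0.41 (adjusted p = 0.732). The call in Huh7 lay close to the size threshold and was lost without parental replicate 2 (-0.99), with upper-quartile scaling (-0.91) and with the GC trend removed (-0.68), while the HepG2 change was called under 7 alternatives, among them limma-voom (-1.19) and median-ratio scaling (-1.02). The study picked this gene for its resistance signature from these cell lines combined with patient-derived xenografts, so its direction here is not independent evidence.

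The CYP4F genes, which hydroxylate leukotrienes, fatty acids and vitamin K, were split between the lines in which of them were expressed. CYP4F3 measured 11.3, 12.4 and 10.6 FPKM in parental and 14.2, 15.7 and 14.5 FPKM in resistant Huh7 samples, and 8.21, 6.24 and 5.27 FPKM in parental and 4.17, 4.12 and 4.31 FPKM in resistant HepG2 samples. CYP4F12 measured 5.37, 5.11 and 5.39 FPKM and 8.46, 8.31 and 7.56 FPKM in Huh7, and 2.56, 2.57 and 2.73 FPKM and 1.64, 1.90 and 1.73 FPKM in HepG2. Both were higher in resistant Huh7 and lower in resistant HepG2 samples without overlap, and only the Huh7 changes passed the adjusted p, at log2 fold changes of 0.34 ± 0.10 (0.0169) and 0.53 ± 0.10 (0.0015), beside -0.52 ± 0.17 (0.0601) and -0.39 ± 0.13 (0.069) in HepG2. The effects differed between the lines by 0.86 ± 0.18 (adjusted p = 0.00219) for CYP4F3 and 0.93 ± 0.12 (adjusted p = 0.000124) for CYP4F12.

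CYP4F11 was expressed in HepG2 alone, at 6.69, 6.24 and 6.13 FPKM in parental and 4.09, 3.86 and 3.64 FPKM in resistant samples (log2 fold change -0.60 ± 0.13, adjusted p = 0.016). The interaction for this gene, 0.59 ± 0.12 (adjusted p = 0.00137), compares that change with a line at the floor of 3 reads, and it was lost in limma-voom and with the GC trend removed. Its neighbour CYP4F2, the vitamin K hydroxylase, went the other way in HepG2, with 21, 18 and 17 reads in parental and 52, 70 and 83 reads in resistant samples and a limma-voom log2 fold change of 1.50 (adjusted p = 0.00427). CYP4F22, which makes skin ceramides, had 0, 3 and 0 reads in parental and 14, 13 and 5 reads in resistant Huh7 samples, and CYP4F8 had at most 2 reads in any sample. The CYP4F genes are close copies, and how reads were shared out among them is not given in the sources used here.

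**Figure D3:**
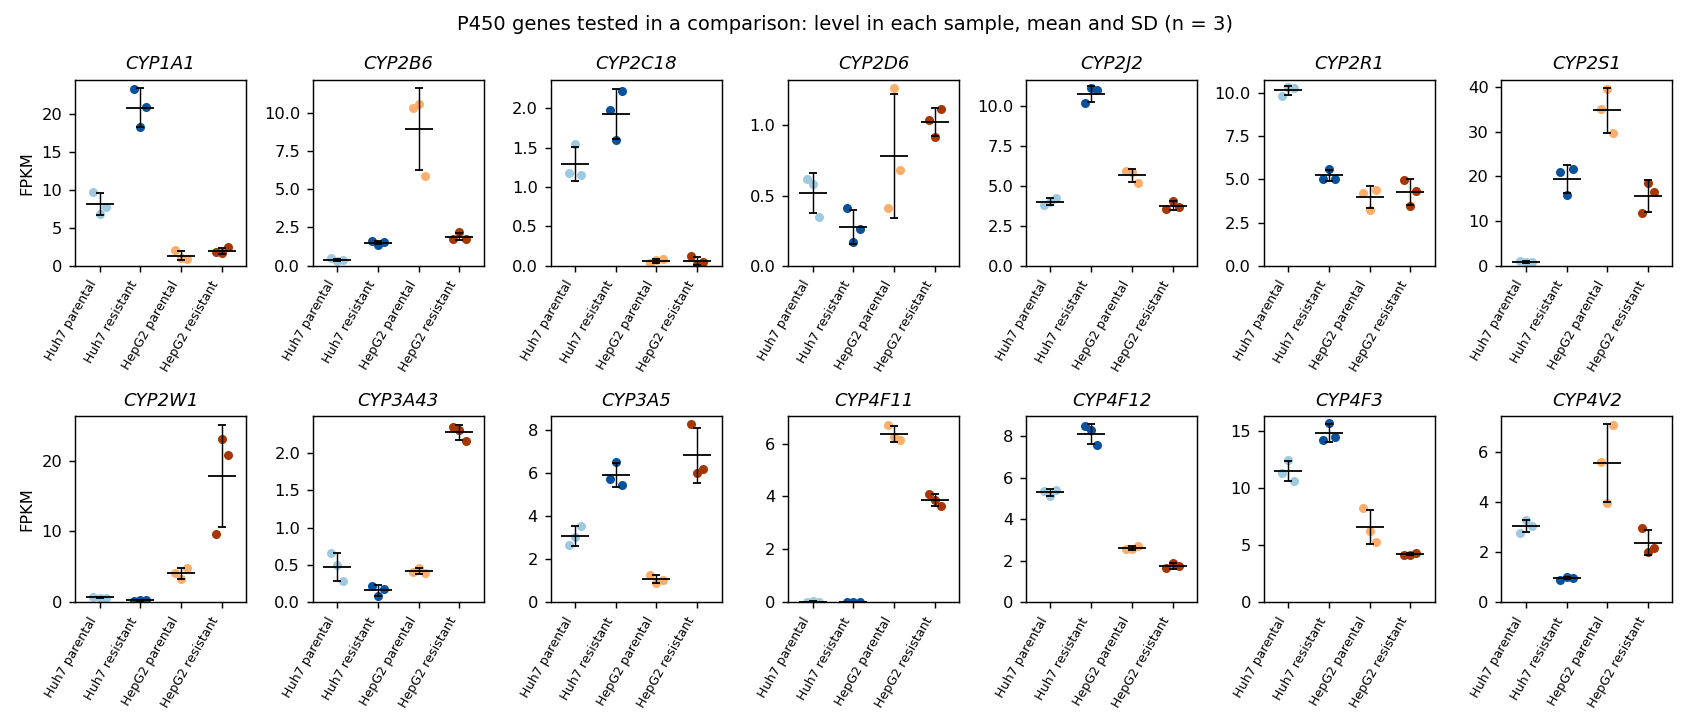
FPKM (vertical axis, from 0, with its own scale in each panel) of the 14 P450 genes tested in at least 1 comparison, in parental and resistant Huh7 and HepG2 samples. Points are samples, horizontal lines the means and bars the SD of 3 samples. CYP2S1 and CYP2B6 are higher in resistant Huh7 and lower in resistant HepG2 cells than in their parents, CYP2W1 and CYP3A43 are highest in resistant HepG2 cells, and CYP4V2 is lower in resistant cells of both lines.

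CYP2R1, the hepatic vitamin D hydroxylase, measured 9.86, 10.3 and 10.3 FPKM in parental and 5.04, 5.59 and 5.05 FPKM in resistant Huh7 samples. The groups were far apart, and the log2 fold change of -0.84 ± 0.10 (adjusted p = 0.000146) stayed under the size threshold. It was -0.28 with the GC trend removed and -1.02, called, in limma-voom. In HepG2 it overlapped between the groups, at 4.23, 3.23 and 4.41 FPKM and 4.98, 3.48 and 4.30 FPKM (log2 fold change 0.08 ± 0.17, 95% interval -0.31 to 0.47), and the effects differed by -0.92 ± 0.18 (adjusted p = 0.0013).

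CYP2C18, a family 2 gene with little known protein in liver, measured 1.18, 1.55 and 1.15 FPKM in parental and 1.98, 1.59 and 2.22 FPKM in resistant Huh7 samples (log2 fold change 0.35 ± 0.13, adjusted p = 0.0356). It missed an adjusted p of 0.05 in limma-voom (0.0572), without the filter on low values (0.0848) and without 4 of the 6 single samples, namely resistant replicates 1 and 3 and parental replicates 1 and 3 (up to 0.127), and 38.5% of its exon bases also belong to the overlapping gene AL583836.1. CYP2D6, an oxidase of many antidepressants and opioids, reached 1 FPKM in HepG2 alone, at 0.41, 1.27 and 0.68 FPKM in parental and 1.04, 0.92 and 1.12 FPKM in resistant samples, which overlapped (log2 fold change 0.21 ± 0.19, 95% interval -0.24 to 0.66, adjusted p = 0.465).

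The effect of resistance differed between Huh7 and HepG2 for 11 of 14 members tested, where 56.3% of all genes tested did. It was more positive in Huh7 for CYP1A1, CYP2B6, CYP2J2, CYP2S1, CYP4F3, CYP4F11 and CYP4F12, and less positive for CYP2R1, CYP2W1, CYP3A5 and, with the limit given above, CYP3A43. The differences of the remaining 3 members were 0.35 for CYP2C18 (95% interval 0.02 to 0.67, adjusted p = 0.0662), -0.46 for CYP2D6 (-0.94 to 0.03, adjusted p = 0.0988) and that of CYP4V2 given above.

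**Figure D4:**
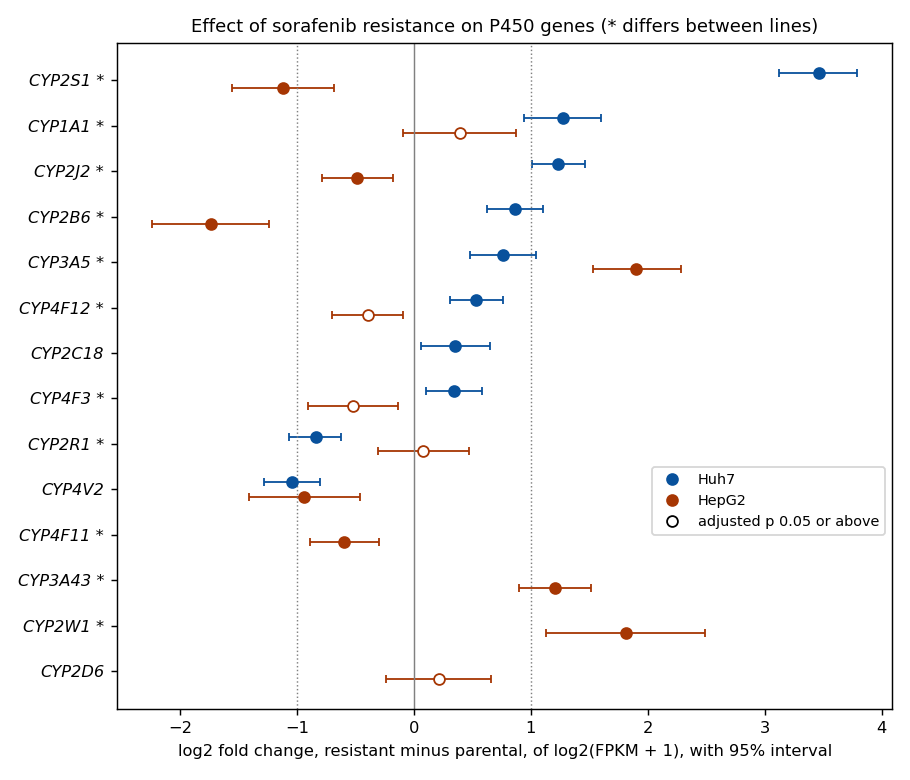
Log2 fold change of log2(FPKM + 1), resistant minus parental (horizontal axis), with its 95% interval, for the 14 P450 genes tested in at least 1 comparison. Blue stands for Huh7 and brown for HepG2, open circles for an adjusted p of 0.05 or above, a missing point for a gene under the filter in that line, dotted lines for log2 fold changes of -1 and 1, and a star for an effect that differs between the lines. CYP2S1 and CYP2B6 lie on opposite sides of 0 in Huh7 and HepG2, while the CYP4V2 intervals overlap to the left of 0.

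Limma-voom, which kept genes with at least 10 reads in at least 3 samples of a line, tested 21 members in Huh7 and called 4 higher, where 12.9% of all genes were called higher, and 10 lower, where 23.8% were called lower. Among those called lower were CYP1B1, CYP2A6, CYP2E1, CYP2R1, CYP2U1, CYP2W1, CYP3A4, CYP3A43 and CYP4V2. In HepG2 it tested 20 members and called CYP2W1, CYP3A5, CYP3A7, CYP3A43 and CYP4F2 higher, where 7.33% of all genes were, and CYP2B6, CYP2S1 and CYP4V2 lower, where 4.98% were. CYP2E1 and CYP3A4 passed this filter in Huh7 only through the parental samples, where they are high, and had to differ, so these counts describe the members and do not stand for all 36.

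CYP2U1, a hydroxylase of long-chain fatty acids, had 102, 99 and 117 reads in parental and 26, 11 and 18 reads in resistant Huh7 samples, a 6.51-fold lower mean FPKM (limma-voom log2 fold change -2.81, adjusted p = 8.08e-09). CYP2A6 had 25, 39 and 42 reads in parental and 12, 14 and 18 reads in resistant samples (-1.44, adjusted p = 0.000988). In both genes every resistant Huh7 sample was below every parental one. In HepG2 CYP2U1 was also lower without overlap, with 35, 19 and 18 reads in parental and 13, 10 and 16 reads in resistant samples. Limma-voom did not call it there (log2 fold change -1.14, adjusted p = 0.0565). CYP2A6 had at most 2 reads in any HepG2 sample, and CYP2C19, which activates clopidogrel, had none there.

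CYP2E1, the ethanol-oxidising member, had 20, 17 and 14 reads in parental and 7, 8 and 8 reads in resistant Huh7 samples, the parental ones alone reaching 10 reads, and 23.9% of its exon bases overlap genes on the opposite strand, from which its reads cannot be told apart without strand. CYP2C8, which oxidises paclitaxel, had 17, 9 and 17 reads in parental and 6, 4 and 7 reads in resistant Huh7 samples. The members under 1 FPKM that are named here, other than CYP3A4 and CYP4F22, were picked after their values were seen. Of the 18 members under 1 FPKM in every group mean, the highest single value was 1.17 FPKM, and 3 members had no more than 3 reads in any of the 12 samples. At this depth such levels show only that few reads were found.

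**Figure D5:**
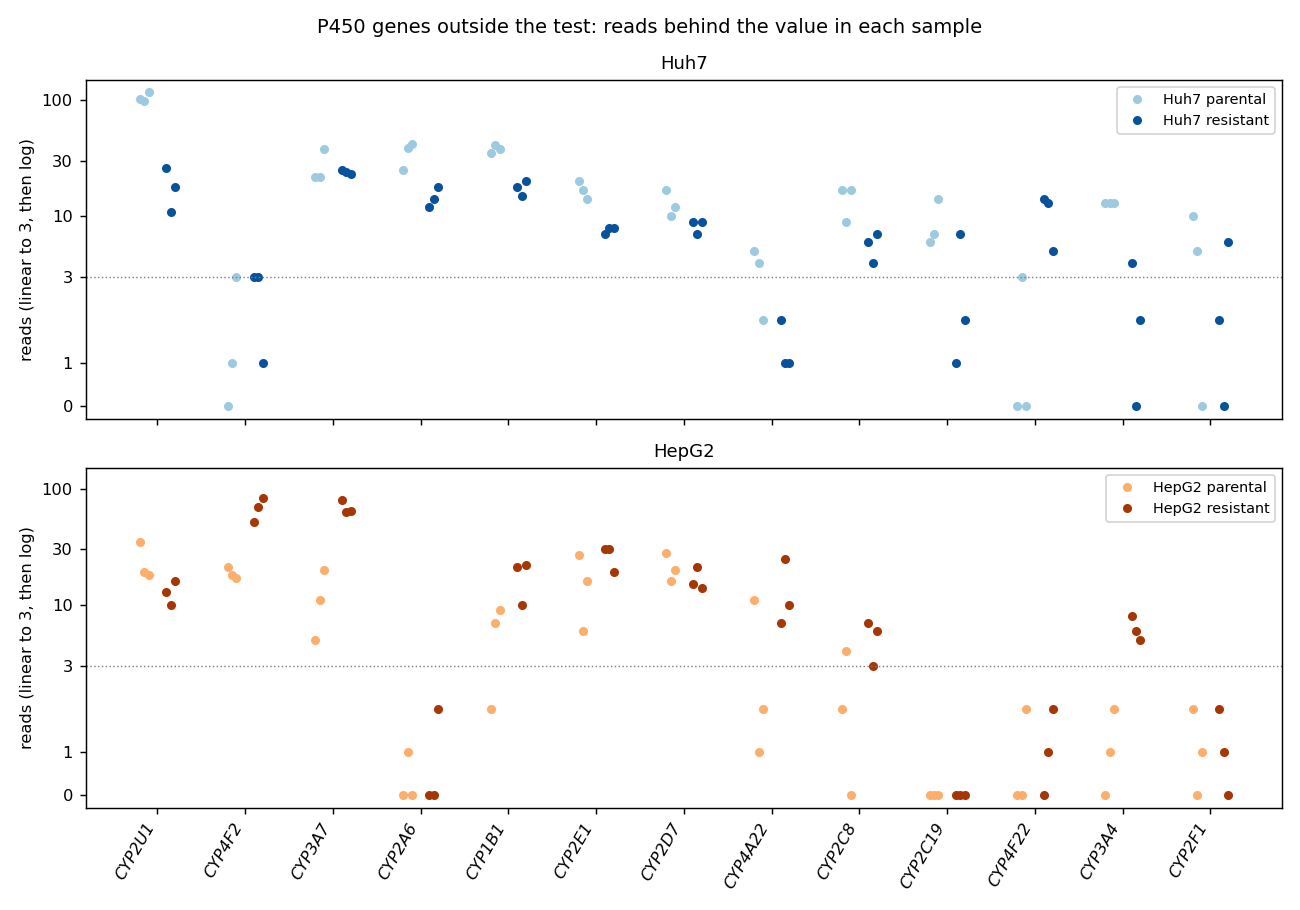
Reads behind the value in each sample (vertical axis, linear up to 3 reads and logarithmic above) for 13 P450 genes that were outside the test and reached 10 reads in a sample, with parental and resistant samples side by side for Huh7 (top) and HepG2 (bottom). The dotted line marks the floor of 3 reads. In Huh7 the resistant samples lie below the parental ones for CYP2U1, CYP2A6, CYP1B1 and CYP2E1. In HepG2 they lie above for CYP4F2, CYP3A7 and CYP3A4 and below for CYP2U1.

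Regulators of P450 genes and their electron supply were listed beside the members. Of 22 regulators 21 were in the tables, and 18 were tested in each line. In Huh7, PXR (NR1I2) was called higher at 0.59, 0.75 and 0.75 FPKM in parental and 2.32, 2.72 and 2.30 FPKM in resistant samples (log2 fold change 1.02 ± 0.11), and since it reached 1 FPKM in resistant samples alone its p-value adds no support. FOXA3, a hepatic forkhead factor, rose from 30.7, 24.4 and 19.3 FPKM to 70.0, 56.3 and 60.9 FPKM (1.32 ± 0.17, adjusted p = 0.000225). By limma's adjusted p alone, under the size threshold, 5 more were higher and 5 were lower, where 70.1% of all genes passed in either direction. The largest of these changes were HNF4A (0.77 ± 0.13, adjusted p = 0.000992) and ONECUT1 (-0.77 ± 0.12, adjusted p = 0.000521). VDR, among those higher, entered the test through resistant samples alone. With the size threshold limma called 0 lower, and limma-voom called 1. In HepG2 limma called 0 higher, where 1 was higher at an unadjusted p under 0.05 and limma-voom called 1. There 3 fell by limma, the coactivator PPARGC1A (log2 fold change -1.08 ± 0.21, adjusted p = 0.0111), the nuclear receptor repressor NR0B2 (-1.01 ± 0.18, adjusted p = 0.00786) and CEBPB (-1.17 ± 0.16, adjusted p = 0.00255). PPARGC1A was under the filter in Huh7, at 0.72, 0.92 and 0.84 FPKM in parental and 0.12, 0.09 and 0.08 FPKM in resistant samples. The study lists PPARGC1A in its resistance signature, picked from these cell lines combined with patient-derived xenografts, so its direction here is not independent evidence. PXR in HepG2 measured 2.53, 3.64 and 4.25 FPKM in parental and 2.98, 2.67 and 2.60 FPKM in resistant samples, with overlapping ranges. CAR (NR1I3) was not called in either line, at 0.31 in Huh7 and -0.10 in HepG2.

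All 18 genes of electron donors and haem metabolism were tested in both lines. In Huh7 4 rose, where limma called 8.59% of all genes higher, and 6 more were higher by the adjusted p alone, which 70.1% of all genes passed in either direction. By limma, by limma-voom or at an unadjusted p under 0.05, 0 fell, where limma called 14% of all genes lower and limma-voom 23.8%. The share of all genes at an unadjusted p was not calculated. The P450 oxidoreductase POR went from 11.6, 8.80 and 8.00 FPKM to 22.9, 18.8 and 22.7 FPKM (log2 fold change 1.11 ± 0.15, adjusted p = 0.000264), and the haem synthesis gene ALAS1 from 45.5, 42.1 and 38.1 FPKM to 96.9, 87.2 and 89.9 FPKM (1.11 ± 0.11, adjusted p = 7.64e-05). The others were CYB5B, an outer mitochondrial membrane cytochrome b5 (1.08 ± 0.12, adjusted p = 0.000113), and BLVRA, which reduces biliverdin (1.54 ± 0.13, adjusted p = 3.67e-05). The cytochrome b5 gene CYB5A was not called in Huh7 (-0.02 ± 0.11, adjusted p = 0.848) or in HepG2 (0.33 ± 0.14, adjusted p = 0.126). In HepG2 limma and limma-voom called 0 of the 18, while at an unadjusted p under 0.05 8 were higher and 1 was lower. Limma's adjusted p alone, which 20% of all genes passed, was passed by CPOX (0.78 ± 0.14, adjusted p = 0.00827), HMOX1 (0.55 ± 0.15, adjusted p = 0.0336) and PGRMC2 (-0.44 ± 0.13, adjusted p = 0.0397). POR in HepG2 measured 28.8, 37.9 and 32.8 FPKM in parental and 22.9, 39.3 and 31.0 FPKM in resistant samples, and its effect differed between the lines by 1.23 ± 0.27 (adjusted p = 0.00271). The median log2 fold change of the 18 genes was 0.58 in Huh7 and 0.26 in HepG2, beside -0.04 and 0.12 for all genes tested.

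Other targets of the same receptors did not share a direction. Of 5 further AHR targets 2 were tested in each line. NQO1, which is also driven by NRF2, rose in Huh7 from 58.1, 52.9 and 47.2 FPKM to 715, 685 and 730.3 FPKM (log2 fold change 3.73 ± 0.12, adjusted p = 2.81e-06), while TIPARP measured 15.8, 15.3 and 13.7 FPKM in parental and 8.91, 12.3 and 11.5 FPKM in resistant samples (-0.43 ± 0.13, adjusted p = 0.0184). Limma called 0 of the tested AHR targets in HepG2, where none passed an unadjusted p under 0.05, limma-voom called 1 of 4 lower, and the values of NQO1 and TIPARP were -0.19 and close to 0. Of 7 further PXR and CAR targets 5 were tested, and the glutathione transferase GSTA1 rose in Huh7 (1.15 ± 0.15, adjusted p = 0.000237) and fell in HepG2 (-1.53 ± 0.16, adjusted p = 0.000828), the directions taken by CYP2B6. The sulfotransferase SULT2A1 rose in HepG2 (1.08 ± 0.13, adjusted p = 0.00168) and was not called in Huh7 (0.22 ± 0.13). In Huh7 ABCB1 was lower (-0.74 ± 0.12, adjusted p = 0.000761) and ABCC2 higher (0.60 ± 0.11, adjusted p = 0.00111), both under the size threshold. Neither passed the adjusted p in HepG2 (-0.45 and -0.29).

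GC content of the gene moved with the fold changes in Huh7. Across 12545 genes the Spearman correlation of log2 fold change with gene GC was 0.617 in Huh7, beside 0.0389 across 11756 genes in HepG2, and genes within a sample are not independent replicates. The median gene tested in Huh7 had 46.7% GC. CYP2S1 (61%) and CYP1A1 (53.3%) lay above it, while CYP4V2 (43.1%), CYP2R1 (40.9%) and 5 others of the 10 members that limma-voom called lower lay below it. Not following the trend were CYP2J2 (41.7%), which rose, and CYP2W1 (67.6%), CYP2A6 (56.6%) and CYP2E1 (50.5%), which were lower. With the trend removed CYP2S1 kept a log2 fold change of 2.93 and CYP2J2 one of 1.71 in Huh7. In HepG2 the 5 calls held with the trend removed and CYP4V2 was added at -1.02. What part the trend has in the members' changes was not tested beyond these values.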

How the data were processed

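RNA was sequenced from 12 samples (3 per group) with a library kit that the labels do not state to mark strand. The tables as deposited by the authors hold 1 value per gene and sample, already scaled by gene length and depth to FPKM. The unit is not stated and was read from the values, and RPKM cannot be told apart from it. The submitters' processing notes name GRCh38 and bcl2fastq, and the aligner and counter are not given in the sources used here. The tables list 98711 genes, of which 27249 are Ensembl genes, from which tested genes were taken, while 71462 NONCODE genes were left out of the tests.

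Reads behind a value were calculated back from exon lengths (GENCODE 29), within 0.05 of a whole read for 35 of the 36 members in all 12 samples. Between 12290108 and 19286247 reads lay behind a sample, and floors of 3 reads cover counting error only. Values were tested as log2(FPKM + 1) in limma 3.58.1 (R 4.3.3), two-sided, with a variance trend and Benjamini-Hochberg adjustment over all genes that reached 1 FPKM in 3 or more samples of the comparison. Resistant and parental samples were compared within each line, the parental lines with each other, and the effects of resistance by an interaction over all 12 samples. Gene handling and figures used Python 3.11.15, pandas 2.3.3, numpy 2.4.6, scipy 1.17.1 and matplotlib 3.10.9. The fits were tested on simulated data. Promoter windows are those of RefSeq on GRCh38.p14, found for 27 members and for 9 not.

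Alternatives were a pseudocount of 0.1, no filter, median-ratio and upper-quartile scaling, limma-voom on reads, no variance trend, a replicate block, a lowess correction for gene GC per library, all 12 samples in 1 fit, and leaving out each sample. Members and gene lists were chosen with earlier results of these data known. Named are members with a group mean of at least 1 FPKM or a call, members with over 3 reads in every sample of one group and at most 3 in the other, and called genes of the other lists. Further genes given with values, such as CYP1B1, CYP2A6, CYP2E1, AHR, NR1I3, HNF4A, ONECUT1, CYB5A, CPOX, HMOX1, PGRMC2, ABCB1, ABCC2, TIPARP and POR in HepG2, were picked after their values were seen. One gene that the rule finds is counted among the members and is not reported here by name.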

Additional observations from a re-analysis of the deposited data

Results flagged for a closer look

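The effect of resistance differed between Huh7 and HepG2 for 11 of the 14 P450 genes in the interaction test, where it did for 56.3% of all genes tested. The difference of the log2 fold changes, Huh7 minus HepG2, was 4.58 for CYP2S1, 2.60 for CYP2B6, 1.72 for CYP2J2, 0.93 for CYP4F12, 0.88 for CYP1A1, 0.86 for CYP4F3 and 0.59 for CYP4F11. It was -2.18 for CYP2W1, -1.55 for CYP3A43, -1.14 for CYP3A5 and -0.92 for CYP2R1. In CYP2S1, CYP2B6, CYP2J2, CYP4F3 and CYP4F12 the resistant samples lay above the parental range in Huh7 and below it in HepG2, while CYP2W1 and CYP3A43 were the reverse. The share of all genes that separated in opposite directions was not calculated, so this describes the members alone. CYP3A43 reached 1 FPKM in resistant HepG2 samples alone and so entered this test through 1 group.

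At members lie 6 genes of the NONCODE set of non-coding transcripts that reached 1 FPKM in a sample, and they entered no comparison above. At 3 of them the level in resistant cells of 1 line averaged at least 1 FPKM and lay above every parental sample, 1 in Huh7 and 2 in HepG2, as it did for 7.6% and 16.9% of all 18495 NONCODE genes at that level. A NONCODE gene at chr15:74723144-74723377, within CYP1A1 and on its strand, measured 3.83, 3.99 and 4.50 FPKM in resistant Huh7 samples (mean 4.10) and 3.10, 1.27 and 3.17 FPKM in parental ones. A NONCODE gene at chr7:99835617-99849560, within CYP3A43 and on its strand, measured 1.21, 0.92 and 1.79 FPKM in resistant HepG2 samples (mean 1.31) and at most 0.07 FPKM in parental ones. A NONCODE gene at chr7:99668998-99670941, within CYP3A5 on the opposite strand, measured 8.32, 5.74 and 6.87 FPKM in resistant HepG2 samples (mean 6.98) and 1.76, 0.88 and 1.41 FPKM in parental ones. In Huh7 the last of these measured 5.07, 6.75 and 4.90 FPKM in resistant and 3.78, 4.86 and 5.28 FPKM in parental samples, which overlapped. The other 3 did not separate upward. The one at CYP4V2, on its strand, averaged 1.26 FPKM in resistant and 1.36 FPKM in parental Huh7 cells and 5.31 and 5.54 FPKM in HepG2 cells, that at CYP2J2 stayed at or under 1.06 FPKM, and that at CYP4F11 averaged 0.85 FPKM in resistant and 1.05 FPKM in parental HepG2 cells. Without strand in the library, reads of these genes cannot be told apart from those of the P450 genes they overlap.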

How the results depend on the processing

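Some calls depended on the processing. Of the single-gene values under an alternative, 749 kept their direction and side of the threshold, 23 moved past it, 13 fell short of it and 8 changed sign. The 749 include values that were never called, so they do not measure how stable the calls were. With the GC trend removed the calls of CYP1A1 (0.85) and CYP4V2 (-0.68) in Huh7 were lost. So were those of CYP2C18 (0.79) and CYP2R1 (0.71) between the parental lines. The number of P450 genes called lower in resistant Huh7 cells was 1, and it was 0 with upper-quartile scaling, 0 with the GC trend removed, 10 in limma-voom on reads and 0 to 1 when 1 sample was left out, with 0 without Huh7 parental replicate 2. Limma-voom, which tests more genes with low values, called 5 higher in resistant HepG2 cells instead of 3. Without the filter on low values 21 of 36 effects differed between the lines instead of 11 of 14, where 33% of all genes did. Between the parental lines, 3 genes were higher in Huh7, 10 in limma-voom and 1 with the GC trend removed. Leaving out 1 sample at a time gave 3 to 3 higher genes in Huh7, 3 to 3 higher and 2 to 3 lower in HepG2, 11 to 12 interactions, and 3 to 4 higher and 4 to 4 lower in parental Huh7. The log2 fold change of CYP2R1 in HepG2, 0.08, turned to -0.04 with upper-quartile scaling, -0.02 with the GC trend removed, -0.02 without HepG2 resistant replicate 1 and -0.03 without HepG2 parental replicate 2, and ranged up to 0.19 when 1 sample was left out. The interaction of CYP4V2, -0.10, turned to 0.14, 0.32, 0.02 and 0.08 under the same alternatives, with a lowest value of -0.27 when 1 sample was left out. The cause was not tested. Deviations of same-numbered samples correlated at 0.084, 0.062 and -0.228 in Huh7 and at 0.246, 0.437 and -0.011 in HepG2. Differently numbered samples ranged from -0.335 to 0.282 in Huh7 and from -0.423 to 0.21 in HepG2. In HepG2 the values 0.246 and 0.437 lay above that range. With so few values, whether the numbers pair the samples is not settled. With a replicate block 3 genes were called higher and 1 lower in Huh7, 3 higher and 2 lower in HepG2, 11 in the interaction, and 3 higher and 4 lower in parental Huh7, the counts without it. By the adjusted p alone the block left 9 of 10 members in Huh7, where CYP2C18 was lost (0.07), 9 of 13 in HepG2 instead of 8, with CYP4F3 added (0.0478), and 11 of 12 between the parental lines, where CYP2J2 was lost (0.0556). Depth limits what can be said of the 18 members under 1 FPKM, parental HepG2 samples being the shallowest, and reads shared between close copies or overlapping genes remain uncertain.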

Other observations

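Of 20 P450 genes outside families 1 to 4, 8 were tested in Huh7, where 1 was called higher, and 4 in HepG2, where 1 was called lower. Both calls were CYP24A1, which degrades active vitamin D. It measured 0.07, 0.10 and 0.08 FPKM in parental and 1.55, 1.34 and 1.43 FPKM in resistant Huh7 samples (limma log2 fold change 1.17, tested only through the resistant samples, so that its p adds no support), and 14.94, 9.28 and 7.75 FPKM in parental and 1.10, 1.58 and 1.68 FPKM in resistant HepG2 samples (limma log2 fold change -2.21, adjusted p = 0.000895). Resistant and parental ranges were separate in both lines, and the effects differed between the lines by 3.38 in limma's interaction (adjusted p = 3.69e-06). CYP27B1, which makes active vitamin D, had mean levels of 0.38 FPKM in parental and 1.49 FPKM in resistant Huh7 cells, and of 0.45 and 1.05 FPKM in HepG2 cells, without overlap in either line. CYP11A1, the first enzyme of steroid synthesis, had 0, 4 and 0 reads in parental and 50, 26 and 34 reads in resistant Huh7 samples, and 1 to 6 reads in HepG2 samples. CYP27B1 and CYP11A1 were picked after their values were seen.

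Pseudogenes of families 1 to 4 were mostly silent. Of 22 that were listed, a group mean of 1 FPKM was reached by 4, namely CYP2D8P, CYP2T1P, CYP4F23P and CYP4F60P. CYP4F23P followed CYP4F11 in being expressed in HepG2 alone, at 2.06 FPKM in parental and 2.30 FPKM in resistant cells, beside 0.075 and 0.088 FPKM in Huh7.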
